A study of Mus musculus with 8 samples.

Results

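The immunity-related GTPases analysed here are 6 interferon-gamma-induced mouse genes chosen by name, Irgm1, Irgm2, Igtp, Iigp1, Tgtp1 and Tgtp2, out of 23369 genes in the count table. All 6 were found by matching Ensembl identifiers to GENCODE M21 symbols. The first 3 are regulators and the last 3 effectors. The cells were spinal cord neutrophils, gated on CD45, CD11b and Ly6G, of C57BL/6N mice in which EAE (experimental autoimmune encephalomyelitis, a mouse model of multiple sclerosis) had been induced. RNA was sequenced at ZT13 (n = 4) and at ZT1 (n = 4), where zeitgeber time counts hours from lights-on. EAE, strain and batch were shared by both groups, and no mouse without EAE was analysed here. The labels give no age and no animal identifiers, so that p-values measure the spread between these samples, each taken as 1 mouse.

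Immunity-related GTPases (IRG proteins) are cytosolic GTPases that interferon-gamma induces strongly in mouse cells. Effector proteins of the family load onto the membranes of vacuoles that hold intracellular parasites and bacteria and help to break them, while regulator proteins sit on the membranes of the cell's own organelles and keep the effectors inactive there. The classes are told apart by the phosphate-binding loop (P-loop) of the GTPase domain, in which effectors carry the usual lysine and regulators a methionine.

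That difference can be read in the coding sequences of GENCODE M21. The stretch that encodes the P-loop is shown 5′ to 3′, with the codon for this residue in capitals, ATG for methionine or AAG for lysine.
Irgm1: ggggactctggcaatggcATGtca
Irgm2: ggggactctggcaatggcATGtca
Igtp: ggggactctggcaatggcATGtca
Tgtp1: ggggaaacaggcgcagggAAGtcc
Tgtp2: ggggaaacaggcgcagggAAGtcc
The 3 regulators share 1 identical stretch with the methionine codon, and Tgtp1 and Tgtp2 share another with the lysine codon. Iigp1 also carries the lysine codon, and its sequence is not shown. Over the whole coding sequence Igtp and Irgm2 were 67.4% identical, Irgm1 and Igtp 64.6%, and regulators and effectors 50.5% to 51.9%. Tgtp1 and Tgtp2 were 99.7% identical, differing at 4 of 1245 aligned bases.

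The promoters are shown next, because 4 of the 6 genes hold a pair of interferon response motifs there. Windows run from 250 bases before to 50 bases after the transcription start in the RefSeq annotation of GRCm38.p6. Of the 6 genes, 5 were matched, all on chromosome 11, and the promoter of Iigp1 was not analysed here. Capitals mark the gamma-activated site GAS (TTCNNNGAA) and the interferon-stimulated response element ISRE (a pair of GAAA repeats 2 bases apart), each searched on both strands.
Irgm1, chr11:48871371-48871670, minus strand: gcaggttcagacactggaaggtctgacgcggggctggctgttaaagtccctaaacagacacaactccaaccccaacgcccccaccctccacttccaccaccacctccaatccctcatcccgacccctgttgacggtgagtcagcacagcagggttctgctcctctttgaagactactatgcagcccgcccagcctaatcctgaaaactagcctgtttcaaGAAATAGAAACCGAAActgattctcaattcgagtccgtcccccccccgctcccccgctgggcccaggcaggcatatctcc
Irgm2, chr11:58214727-58215026, plus strand: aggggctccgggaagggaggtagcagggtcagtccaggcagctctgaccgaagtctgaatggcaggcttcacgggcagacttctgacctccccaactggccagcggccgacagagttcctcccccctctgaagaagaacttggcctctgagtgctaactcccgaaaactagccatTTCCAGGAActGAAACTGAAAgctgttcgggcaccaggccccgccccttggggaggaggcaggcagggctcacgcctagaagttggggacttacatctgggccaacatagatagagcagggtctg
Igtp, chr11:58199306-58199605, plus strand: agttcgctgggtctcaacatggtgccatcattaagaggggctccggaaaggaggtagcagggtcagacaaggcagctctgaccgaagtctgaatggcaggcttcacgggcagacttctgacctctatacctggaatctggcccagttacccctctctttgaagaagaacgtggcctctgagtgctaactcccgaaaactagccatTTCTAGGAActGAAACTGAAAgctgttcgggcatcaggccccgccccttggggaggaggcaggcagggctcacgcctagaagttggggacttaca
Tgtp2, chr11:49064163-49064462, minus strand: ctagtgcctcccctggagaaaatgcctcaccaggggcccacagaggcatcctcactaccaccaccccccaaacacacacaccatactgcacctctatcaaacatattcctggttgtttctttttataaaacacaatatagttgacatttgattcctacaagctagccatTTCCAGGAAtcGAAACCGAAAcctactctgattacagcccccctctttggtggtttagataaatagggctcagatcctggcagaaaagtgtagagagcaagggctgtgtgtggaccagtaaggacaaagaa
In Irgm2, Igtp, Tgtp1 and Tgtp2 the GAS lay 2 bases before the ISRE, at 45 to 88 bases upstream of the start. These stretches are given with 5 bases on either side.
Irgm2, chr11:58214897-58214927, plus strand: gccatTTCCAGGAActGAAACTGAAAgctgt
Igtp, chr11:58199506-58199536, plus strand: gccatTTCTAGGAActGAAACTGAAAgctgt
Tgtp1, chr11:48992309-48992339, minus strand: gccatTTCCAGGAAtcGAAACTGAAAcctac
Tgtp2, chr11:49064268-49064298, minus strand: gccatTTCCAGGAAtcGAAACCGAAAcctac
Irgm1 held 2 overlapping ISRE matches, 30 and 24 bases upstream, and no GAS match in this window. Of 32851 promoter windows of the same length, 8.30% held a GAS match, 3.44% an ISRE match and 0.454% both. The joined pattern of a GAS and, 2 bases on, an ISRE on the same strand, chosen after these promoters had been seen, matched 5 windows (0.0152%). These were the 4 genes just named and Gm12185, a further IRG gene. In GENCODE M21 it overlaps Tgtp1 on the same strand, with 223 exonic bases in common. The matches are a description of letters and not of binding.

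The genes lie in clusters on GRCm38. On chromosome 11, Irgm1 (ENSMUSG00000046879.8) spans 48861968 to 48871683, Tgtp1 (ENSMUSG00000078922.10) 48985327 to 48994172 and Tgtp2 (ENSMUSG00000078921.4) 49057194 to 49064206, all on the minus strand. Igtp (ENSMUSG00000078853.9), at 58199556 to 58207591, and Irgm2 (ENSMUSG00000069874.8), at 58199618 to 58222782, lie on the plus strand and overlap, with 162 exonic bases in common. Iigp1 (ENSMUSG00000054072.13) lies on chromosome 18 from 60376027 to 60392634. All 6 are annotated as protein-coding.

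These overlaps and copies bear on the counts, since reads were 50 bases long. Of the 50-base windows in Tgtp1 transcripts 81.2% also occur in transcripts of other genes, and in Tgtp2 86.6%, nearly all of them in the other copy. The shared part was 11.8% in Igtp, 7.77% in Irgm2, 1.69% in Iigp1 and 0.310% in Irgm1. The sources do not state how reads that match several genes were counted, so that Tgtp1 and Tgtp2 are uncertain as single genes. Their sum is given as well, but it too would lack any shared reads that were left out of the counts.

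The libraries held 46152067 to 67873023 counts, so that a count of 0 allows up to 0.0414 to 0.0673 CPM (3 counts per library, counting error only; CPM is the count scaled by the library's total and TMM factor). Detected genes were fewer at ZT13 (13945 to 15751) than at ZT1 (15760 to 17701). Genes for the gating antigens were expressed at both times, with Ly6g at 485 ± 24.2 CPM at ZT13 and 369 ± 108 CPM at ZT1 (SD, n = 4 each) and Itgam (CD11b) at 488 ± 14.9 CPM at ZT13 and 482 ± 16.8 CPM at ZT1. In bulk samples, fewer cells of a type and less RNA per cell cannot be told apart.

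The 3 regulators were well expressed in every library and the 3 effectors were low or at 0 in most. Relative to exon length, Igtp had the highest level of the 6 genes, at 19.6 ± 3.60 CPM per kilobase at ZT13 and 30.8 ± 15.7 at ZT1 (SD, n = 4 each). Irgm2 stood at 11.2 ± 3.03 CPM per kilobase at ZT13 and 9.85 ± 3.22 at ZT1, and Irgm1 at 8.70 ± 1.49 at ZT13 and 13.6 ± 7.58 at ZT1, levels that did not differ from each other beyond their spread. Averaged over the 8 libraries, Igtp lay above 87.3% of 12310 tested genes with an annotated length, Irgm1 above 75.5% and Irgm2 above 74.6%.

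Effector levels per length were lower, at most 3.64 CPM per kilobase in any library, where the regulators had at least 6.51. If reads that match both Tgtp copies were left out of the counts, the levels and ranks of Tgtp1 and Tgtp2 given here may be too low. Tgtp2 stood at 0.532 ± 0.153 CPM per kilobase at ZT13 and 1.75 ± 1.59 at ZT1, Tgtp1 at 0.0739 ± 0.0698 at ZT13 and 1.30 ± 1.44 at ZT1, and Iigp1 at 0 at ZT13 and 0.620 ± 0.686 at ZT1. The spreads of the effectors overlapped each other at ZT1. Averaged over all libraries, Tgtp2 lay above 33.2% of the tested genes, Tgtp1 above 25.0% and Iigp1 above 14.0%. By these values, the gap between the classes held for these 6 genes and not for every effector. Gm12250, which encodes the effector Irgb10, stood at 5.04 ± 2.01 CPM per kilobase at ZT13 and 12.9 ± 9.25 at ZT1. It ranged from 2.55 to 22.9 over the libraries, which overlaps the regulators.

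Between the time points, no member passed the threshold in edgeR, and the differences by value lay in 2 ZT1 libraries. Of 12610 genes tested with edgeR's quasi-likelihood test, 0 had a Benjamini-Hochberg adjusted p under 0.05, which is 0% of all genes, while 1160 (9.20%) had an unadjusted p under 0.05 and DESeq2 called 256 of 15044 (1.70%). Iigp1 did not pass the filter on low counts, which left 5 members in the test. Of these 0 passed, 2 (Tgtp1 and Tgtp2) had an unadjusted p under 0.05 with lower values at ZT13, against 4.85% of all tested genes. The same 2 had a log2 fold change of -1 or lower, against 4.6% of all tested genes, and DESeq2 called 1 member, Iigp1. In 0 of the 6 genes were the groups without overlap, against 5.65% of all tested genes.

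**Figure D1:**
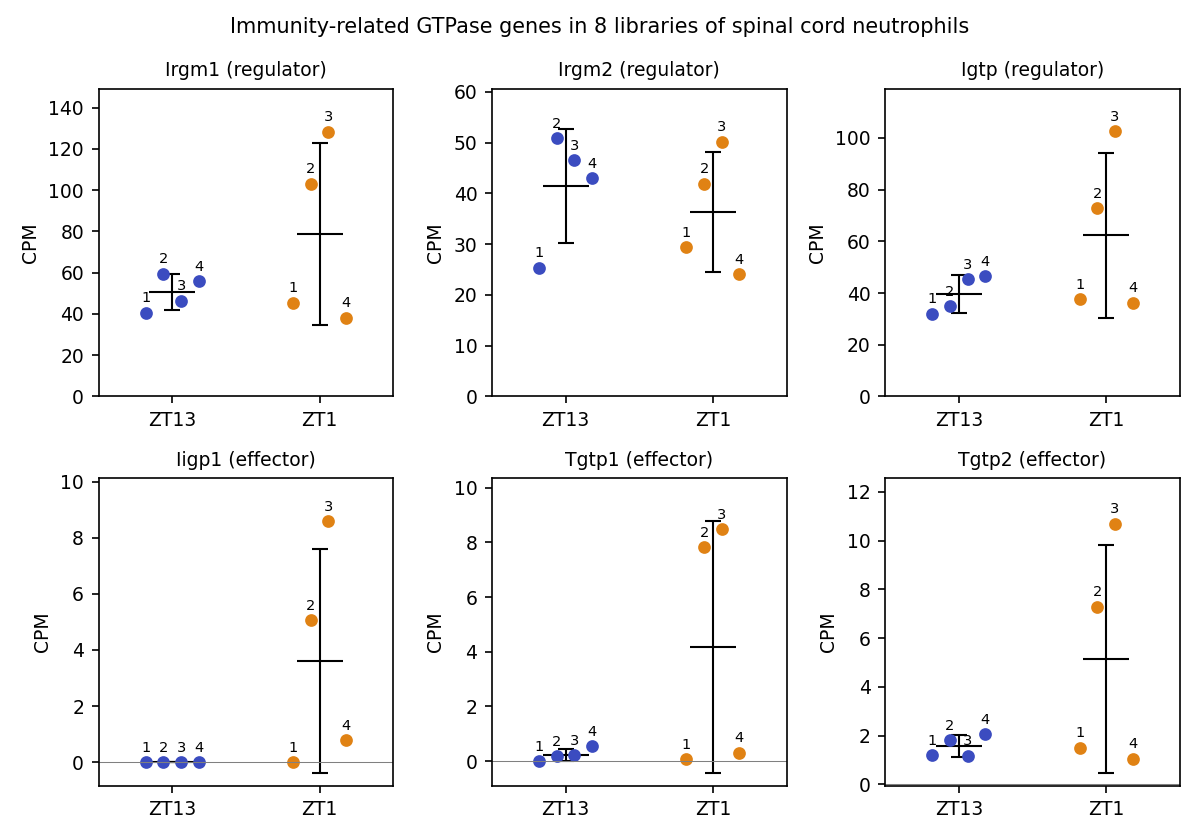
Level of each of the 6 genes in CPM (y axis; axes start at 0, or below it where the SD bar crosses 0) in the 4 ZT13 and the 4 ZT1 libraries. Points are libraries numbered by replicate, and bars show the mean ± SD. In every panel but that of Irgm2 the ZT1 replicates 2 and 3 lie above the other 6 libraries.

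Irgm1, the regulator best known for its part in defence against mycobacteria and in autophagy, had 40.6, 59.4, 46.3 and 55.8 CPM in the ZT13 libraries (replicates 1 to 4), against 45.5, 103, 128 and 38.1 CPM in the ZT1 libraries. The ZT1 replicates 2 and 3 were high, and replicates 1 and 4 were within or below the ZT13 range. The log2 fold change of ZT13 over ZT1 was -0.64 ± 0.36 (SE; 95% interval from -1.44 to 0.16; edgeR adjusted p = 0.638).

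Igtp, also called Irgm3, a regulator found at the endoplasmic reticulum, had 32.0, 34.9, 45.3 and 46.4 CPM in the ZT13 libraries, against 37.6, 72.7, 103 and 36.2 CPM in the ZT1 libraries. The same pair of ZT1 libraries stood above all others, and the other two ZT1 libraries lay inside the ZT13 range. The log2 fold change was -0.65 ± 0.32 (95% interval from -1.37 to 0.07; edgeR adjusted p = 0.586).

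Irgm2, a regulator found at the Golgi membrane, had 25.4, 50.8, 46.5 and 43.0 CPM in the ZT13 libraries, against 29.4, 41.9, 50.2 and 24.0 CPM in the ZT1 libraries. The groups covered nearly the same range, with the highest value in a ZT13 library. The log2 fold change was 0.19 ± 0.27 (95% interval from -0.42 to 0.80; edgeR adjusted p = 0.896), which leaves room for a difference in either direction.

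Ratios within a library do not depend on its scaling and set the regulators against each other. Igtp over Irgm2 was 1.26, 0.686, 0.972 and 1.08 in the ZT13 libraries, against 1.28, 1.74, 2.04 and 1.51 in the ZT1 libraries. Every ZT13 ratio was below every ZT1 ratio, by a narrow margin between replicate 1 of each. Both genes share exonic bases, and the part of reads from there was not tested. A ratio to Irgm2 lower in every ZT13 library was found for 1.15% of 12609 tested genes, and the ratio was chosen after its values had been seen, so that no test is given. Irgm1 over Irgm2 was 1.26 ± 0.255 at ZT13 and 2.04 ± 0.547 at ZT1 (SD, n = 4 each), with ZT13 replicate 1 (1.60) above 2 of the ZT1 libraries. Igtp over Irgm1 was 0.796 ± 0.161 at ZT13 and 0.820 ± 0.101 at ZT1 and overlapped fully.

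**Figure D2:**
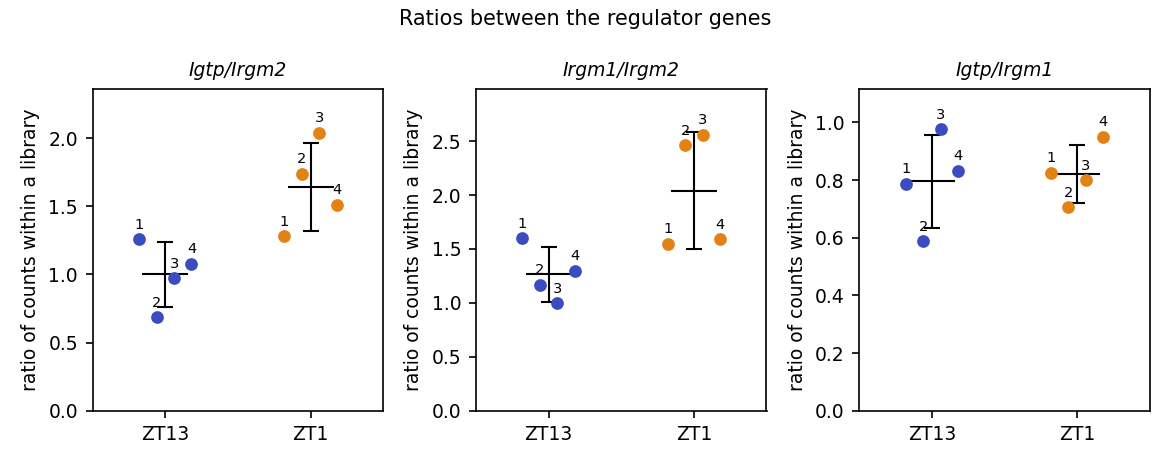
Ratios of read counts between pairs of regulator genes within each library (y axis, from 0), for ZT13 and ZT1. Points are libraries numbered by replicate and bars show the mean ± SD. Igtp over Irgm2 spans 0.686 to 1.26 at ZT13 and 1.28 to 2.04 at ZT1, while Igtp over Irgm1 overlaps between the times.

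Iigp1, also called Irga6, an effector that coats the vacuole of Toxoplasma, had 0 counts in all 4 ZT13 libraries, against 0, 236, 512 and 57 counts in the ZT1 libraries. This corresponds to 0, 5.07, 8.59 and 0.786 CPM at ZT1, and to at most 0.0510 to 0.0673 CPM per library at ZT13. Taken against 3 counts in each ZT13 library, the ZT13 level was at least 60.7-fold lower, and at least 32.8-fold lower without ZT1 replicate 3. ZT1 replicate 1 was at 0 as well, so that the groups overlapped (exact two-sided permutation test on CPM, p = 0.143, where 0.0286 is the smallest that 4 against 4 can give). The adjusted p was 0.0478 in DESeq2 and, without the filter, 0.485 in edgeR (unadjusted 0.00165).

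Tgtp1, one of the near-identical genes for the effector Irgb6, had 0, 11, 11 and 24 counts in the ZT13 libraries, against 4, 364, 506 and 23 counts in the ZT1 libraries. In CPM these were 0, 0.187, 0.221 and 0.539 at ZT13 and 0.0649, 7.82, 8.49 and 0.317 at ZT1. ZT1 replicates 2 and 3 were again high, and the other ZT1 libraries lay within the ZT13 range. The log2 fold change was -4.13 ± 1.54 (95% interval from -7.57 to -0.70; edgeR unadjusted p = 0.0232, adjusted p = 0.494).

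Tgtp2, the other copy, had 1.20, 1.82, 1.17 and 2.07 CPM in the ZT13 libraries, against 1.49, 7.28, 10.7 and 1.05 CPM in the ZT1 libraries. It was present in every library, ZT1 replicates 2 and 3 were high, and the other two ZT1 libraries were within or below the ZT13 range. Its log2 fold change was -1.71 ± 0.71 (95% interval from -3.31 to -0.12; edgeR unadjusted p = 0.0378, adjusted p = 0.519). Without ZT1 replicate 3 the log2 fold change was -1.07.

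Summed, the Tgtp pair had 1.20, 2.01, 1.39 and 2.60 CPM at ZT13, against 1.56, 15.1, 19.2 and 1.37 CPM at ZT1. As 1 feature it gave a log2 fold change of -2.37 ± 0.83 (edgeR adjusted p = 0.491; exact two-sided permutation p = 0.314). The counts were split unevenly between the copies, with Tgtp1 over Tgtp2 at 0, 0.103, 0.190 and 0.261 in the ZT13 libraries and at 0.0435, 1.07, 0.793 and 0.303 in the ZT1 libraries. The ratio was highest in the libraries with the most Tgtp reads.

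The balance of effectors to regulators followed the same libraries. Effectors took 1.21%, 1.36%, 0.994% and 1.76% of the scaled counts of the 6 genes in the ZT13 libraries, against 1.37%, 8.47%, 8.99% and 2.14% in the ZT1 libraries. These shares depend on how reads common to the Tgtp copies were counted, which is not stated. The summed regulators had 98.0 to 145 CPM at ZT13 and 98.3 to 281 CPM at ZT1, and the summed effectors 1.20 to 2.60 CPM at ZT13 and 1.56 to 27.8 CPM at ZT1. ZT1 replicates 2 and 3 were the highest pair of libraries for 5 of the 6 genes, a pattern noticed in these values and held by 4.01% of all tested genes.

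The wider IRG family was mixed. Of 17 further family names listed, 10 were in the table and 7 passed the filter, with 3 negative and 4 positive log2 fold changes. The median was 0.15, against -0.02 over all 12610 genes, and 52.3% of all genes were negative. Gm12250, which encodes the effector Irgb10, had 3.25, 9.29, 5.79 and 7.36 CPM in the ZT13 libraries, against 7.89, 23.6, 29.1 and 4.99 CPM in the ZT1 libraries (log2 fold change -1.35 ± 0.55, edgeR adjusted p = 0.519). GENCODE M21 lists it as a processed pseudogene and RefSeq as protein-coding. Its level had the pattern of the Tgtp pair, with ZT1 replicates 2 and 3 on top.

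Of the 7 tested genes of this list, Gm12250 alone had ZT1 replicates 2 and 3 as the highest pair. 9930111J21Rik2 stood at 23.6 ± 7.18 CPM at ZT13 and 20.8 ± 2.86 at ZT1, and 9930111J21Rik1 at 11.05 ± 2.83 at ZT13 and 11.97 ± 2.24 at ZT1. Gm5431 averaged 4.28 ± 1.61 CPM at ZT13 and 3.87 ± 3.27 at ZT1, and Gm12185, whose promoter holds the joined motif, 0.637 ± 1.23 at ZT13 and 0.498 ± 0.394 at ZT1. These genes share much sequence (82.9% of the 50-base windows of 9930111J21Rik1 occur in other genes), and their single values are uncertain. The divergent relatives Irgq and Irgc1 were present in every library, with Irgq at 8.12 ± 3.29 CPM at ZT13 and 5.04 ± 1.71 at ZT1 and Irgc1 at 1.91 ± 0.938 at ZT13 and 2.33 ± 0.261 at ZT1. Gm12187, a pseudogene, had at most 5 counts in any library. Gm4951 had counts in 1 library of each group and F830016B08Rik in ZT1 replicate 2 alone, at 1.07 CPM or less.

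**Figure D3:**
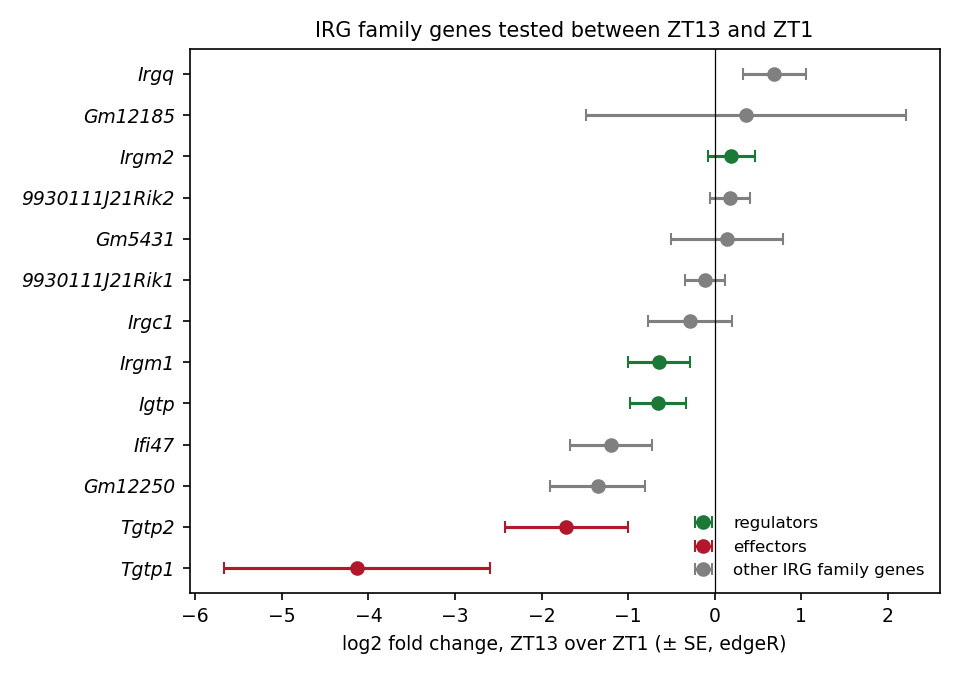
Log2 fold change of ZT13 over ZT1 (x axis; points with SE from edgeR) for the IRG family genes that passed the filter and for Ifi47, coloured by class. The effectors Tgtp1 (-4.13) and Tgtp2 (-1.71) lie farthest to the left, the regulators Igtp (-0.65) and Irgm1 (-0.64) between them and 0, and Irgm2 (0.19) to the right of 0. No point passes an adjusted p of 0.05.

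The genes with the pattern most like the members were ranked next. Likeness was the Pearson r between log2 CPM and the mean standardised log2 CPM of the 5 tested members over the 8 libraries, ranked over 7213 genes that averaged 8 or more CPM, and it is given as a description since all genes share these libraries. The highest were Ly6i (r = 0.98, Spearman rho 0.929), Ifi47 (0.972 and 0.929), Irf1 (0.964 and 0.929), Gm12250 (0.955 and 0.881), Tap1 (0.955 and 0.976) and Ly6a (0.939 and 0.857). Aldoa, Atp6v0b, Rab32 and Rab7 followed with r from 0.93 to 0.92. The profile itself was -1.02, -0.07, -0.20 and 0.06 standard units in the ZT13 libraries, against -0.64, 1.10, 1.58 and -0.82 in the ZT1 libraries. ZT1 replicates 2 and 3 were highest, while ZT1 replicates 1 and 4 lay below ZT13 replicates 2 to 4.

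Ifi47, also called Irgd, is an IRG family gene of the chromosome 11 cluster (49076587 to 49096974, ENSMUSG00000078920.4) that was not on the family list and is named through this ranking. It had 22.9, 44.8, 36.6 and 36.4 CPM in the ZT13 libraries, against 33.7, 107, 150 and 32.9 CPM in the ZT1 libraries. The log2 fold change was -1.20 ± 0.48 (edgeR unadjusted p = 0.031, adjusted p = 0.515). Its promoter window, taken at the 5′ end of its annotated span, held neither motif, and no other start site was searched. Its P-loop codon is that of lysine.
Ifi47: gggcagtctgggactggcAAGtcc
Its ratio to Irgm2 was 0.786 to 0.901 in the ZT13 libraries and 1.15 to 2.99 in the ZT1 libraries. The groups did not overlap, as for 1.15% of tested genes, and this ratio too was chosen after its values had been seen.

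Upstream of these genes, the interferon-gamma receptor genes had close mean levels at both times. Ifngr1, the ligand-binding chain, stood at 445 ± 38.6 CPM at ZT13 and 472 ± 33.3 at ZT1 (log2 fold change -0.08, 95% interval from -0.29 to 0.12), and Ifngr2, the signalling chain, at 176 ± 37.0 at ZT13 and 171 ± 15.7 at ZT1 (0.04, from -0.30 to 0.38). Of the 12 receptor and signalling genes, all tested, 9 were negative with a median of -0.14. Among them 1, Socs1, had an unadjusted p under 0.05 with lower values at ZT13, against 4.85% of all tested genes. Socs1, the feedback inhibitor of Janus kinases, had 6.67, 4.73, 4.14 and 7.81 CPM at ZT13, against 5.42, 16.3, 18.7 and 6.54 CPM at ZT1. Irf1, an interferon-induced transcription factor that binds ISRE sites, had 122, 132, 130 and 143 CPM at ZT13, against 107, 211, 262 and 102 CPM at ZT1. Both Socs1 and Irf1 were highest in ZT1 replicates 2 and 3, the pair that was highest for 5 of the 6 members.

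Guanylate-binding proteins, the large GTPases that act with IRG effectors at pathogen vacuoles, had lower values at ZT13 in 7 of 8 tested genes of 11 listed. Their median log2 fold change was -0.90. An unadjusted p under 0.05 was found for 4 (Gbp2, Gbp3, Gbp4 and Gbp5), all lower at ZT13, against 4.85% of all tested genes. In edgeR 0 passed over all genes, while DESeq2 called 2 as lower at ZT13, against 1.1% of all genes in its test. Gbp5 had 0.158, 0.749, 1.15 and 1.91 CPM at ZT13, against 8.49, 21.7, 32.9 and 7.79 CPM at ZT1, without overlap. It was the only 1 of the 8 lower at ZT13 without overlap, against 2.99% of all tested genes. Gbp2 had 81.0, 73.3, 78.2 and 117 CPM at ZT13, against 85.2, 235, 280 and 94.9 CPM at ZT1. For 5 of the 8 tested genes ZT1 replicates 2 and 3 were the highest pair, against 4.01% of all tested genes.

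Of 18 other interferon-gamma-induced genes listed, 16 were tested, 12 were negative and the median was -0.33. Of these, 4 had an unadjusted p under 0.05, all lower at ZT13, against 4.85% of all tested genes. They were the chemokines Cxcl9 and Cxcl10, Cd274 (PD-L1) and Tap2. In edgeR 0 passed over all genes, while DESeq2 called 3 as lower at ZT13, against 1.1% of all genes in its test. Cd274 stood at 17.2 ± 6.17 CPM at ZT13 and 45.6 ± 28.2 at ZT1, again highest in replicates 2 and 3 of ZT1 (68.9 and 71.0 CPM). Tap2, a subunit of the peptide transporter, was higher in every ZT1 library, at 104 ± 10.3 CPM at ZT13 and 129 ± 10.7 at ZT1. Of the 16 tested genes 2 were lower at ZT13 without overlap, against 2.99% of all tested genes. The summed level of the 18 genes was not lower at ZT13, at 2841 ± 214 CPM at ZT13 and 2735 ± 726 at ZT1.

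**Figure D4:**
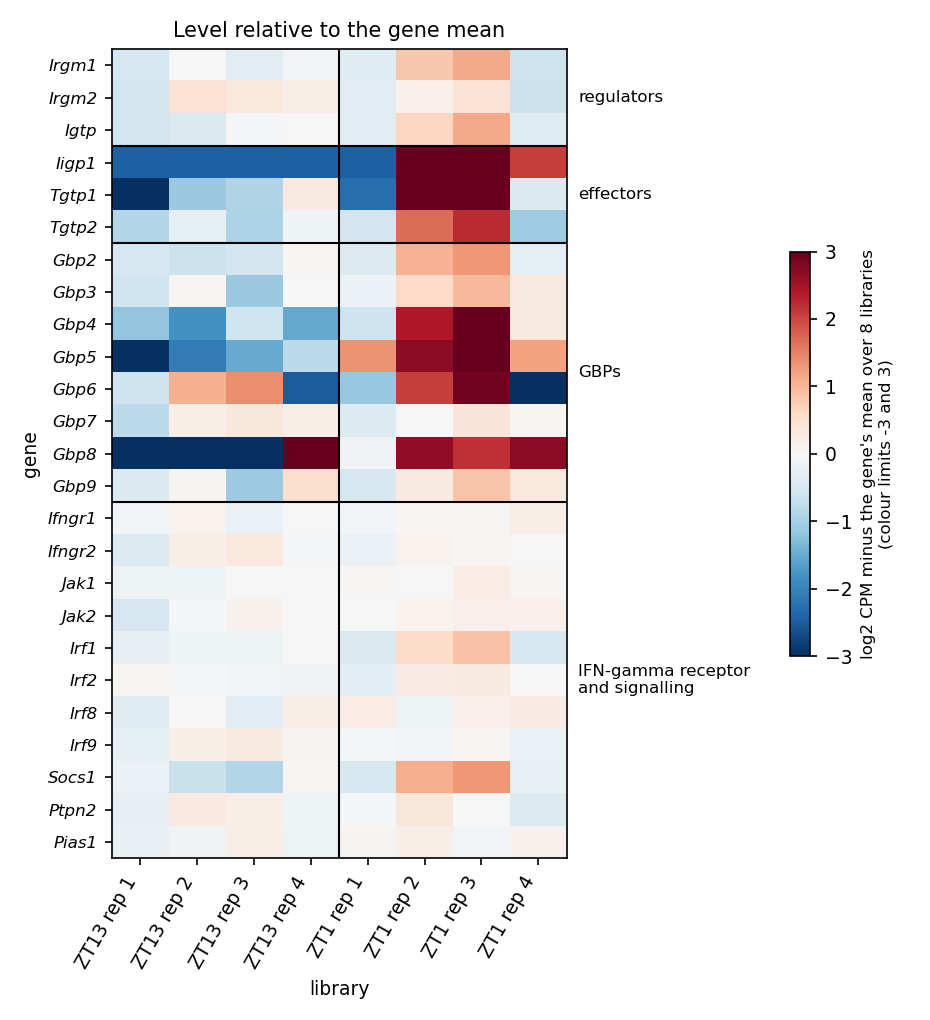
Log2 CPM minus the gene's mean over the 8 libraries (colour, limits -3 and 3) for the 6 members, the tested guanylate-binding protein genes (GBPs) and interferon-gamma receptor and signalling genes, with ZT13 libraries on the left and ZT1 libraries on the right. ZT1 replicates 2 and 3 stand out in red for all members except Irgm2 and for Gbp2, Gbp4, Gbp5, Irf1 and Socs1, while Ifngr1 and Ifngr2 vary little.

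Markers of other cells were measured beside these values. Ifng had 0 counts in all 8 libraries. The 12 T and NK cell genes in the table, of 13 listed, summed to 8.84 to 22.2 CPM at ZT13 and 9.31 to 20.1 CPM at ZT1, and ZT1 replicates 2 and 3 had 12.4 and 9.31 CPM, not the highest values. Nkg7 and Cd3d made up most of this sum. Within the list Prf1 (perforin) had 0 counts in all 4 ZT13 libraries, against 0.308, 0.279, 0.453 and 0.524 CPM in the ZT1 libraries. The groups of Prf1 did not overlap (edgeR adjusted p = 0.255, DESeq2 adjusted p = 0.00178). Of the 5 tested genes of the list, 2 were negative and 3 positive. Cd3d, Cd3e and Trac had higher means at ZT13, with Cd3d at 3.68 ± 2.65 CPM at ZT13 and 2.10 ± 0.948 at ZT1. The 10 monocyte and macrophage genes summed to 978 to 1634 CPM at ZT13 and 1347 to 1878 CPM at ZT1, with 1363 and 1878 in ZT1 replicates 2 and 3. Within that list Mrc1 (the mannose receptor) had 0, 0, 0 and 0.135 CPM in the ZT13 libraries, against 0.584, 2.25, 1.02 and 0.828 CPM in the ZT1 libraries. Its groups did not overlap, and ZT1 replicates 2 and 3 were highest (edgeR adjusted p = 0.433, DESeq2 adjusted p = 0.0102). Of the 10 genes, all tested, 6 were negative and 4 (C1qa, C1qb, C1qc and Apoe) positive. Prf1 and Mrc1 passed the filter on low counts through their ZT1 libraries alone, which favours groups without overlap. Among all tested genes, 2.99% were lower at ZT13 without overlap. The 8 microglia genes summed to 125 to 231 CPM at ZT13 and 135 to 194 CPM at ZT1, with 159 and 194 in those libraries.

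The 7 dendritic cell and MHC class II genes summed to 173 to 351 CPM at ZT13 and 125 to 425 CPM at ZT1. The highest values were 368 and 425 in ZT1 replicates 2 and 3, followed by 351 and 326 in ZT13 replicates 1 and 2. Of that list Xcr1 was at 0 in all libraries but ZT1 replicate 3. B cell genes (4 in the table of 5) summed to 154 to 194 CPM at ZT13 and 136 to 249 CPM at ZT1, nearly all from Ighm. Of the 3 tested, 1 was negative and 2 positive. Cd79b stood at 3.18 ± 1.04 CPM at ZT13 and 1.51 ± 0.456 at ZT1, without overlap (edgeR adjusted p = 0.519). Groups without overlap were found for 5.65% of all tested genes. Central nervous system genes (5 of 8) summed to 105 to 190 CPM at ZT13 and 105 to 154 CPM at ZT1, nearly all from Mbp, with Snap25 at 0 in all libraries but ZT1 replicate 2. The 12 neutrophil genes summed to 167400 to 214900 CPM at ZT13 and 130700 to 164700 CPM at ZT1, ranges that did not overlap. Of the 12, all tested, 10 were positive and 2 negative. At an unadjusted p under 0.05 in edgeR, 4 were higher and 1 lower at ZT13, against 9.2% of all tested genes in either direction. In edgeR 0 passed over all genes. In 0 of the 12 were the groups without overlap, against 5.65% of all tested genes. The part of other cells in the IRG values was not tested.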

How the data were processed

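Counts per gene were deposited by the authors as 1 table of raw read counts. The submitters' processing notes name the build GRCm38 and the tools STAR 2.7.10b, Subread 2.0.3, featureCounts, FastQC and DESeq2 1.46.0, without their roles. The strand setting and the annotation behind the counts are not stated there. Per the labels' protocols, cDNA was made with SMART-Seq v4 and libraries with Nextera XT, which does not mark strand. Of 23369 identifiers, 22222 matched GENCODE M21 without version numbers, and the others held 0.125% of counts.

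The time points were compared with edgeR 4.0.16 under R 4.3.3 (robust quasi-likelihood F-test, TMM, filterByExpr at a minimum count of 10, Benjamini-Hochberg adjustment over 12610 genes, threshold 0.05). Each SE was derived from the log2 fold change and its F value. Log2 CPM uses a prior count of 2. Alternatives used DESeq2 1.42.0, limma 3.58.1, other scalings and filters, left-out samples, a replicate block and a summed Tgtp pair. The procedure was tested on simulated data. Members and lists were chosen with earlier results of these data known. Named genes are the members, other IRG genes, the 4 or fewer lowest p per list, the top gene by level of each cell type list and the 10 genes most like the members. Not every one is printed, and some genes of the lists enter the counts and sums but are not reported here by name. Lengths are exon unions of GENCODE M21, a release other than the one counted on. Same-numbered samples did not deviate together (r from -0.0399 to 0.0505).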

Additional observations from a re-analysis of the deposited data

Results flagged for a closer look

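In 29 groups of 4 libraries (16 IRG family genes, groups with no value above 3 counts left out), 5 held a library far from the other 3. Chance gives about 1 in 20 for normally distributed values. The rule always flags a group in which only 1 library is above 0, as for Gm4951 and F830016B08Rik. The number of flags can therefore not be set against 1 in 20. Gm4951 was at 0.425 CPM in ZT13 replicate 2 and at 1.07 CPM in ZT1 replicate 2, and at 0 in the other libraries of both groups. F830016B08Rik was at 0.515 CPM in ZT1 replicate 2 and at 0 in the other ZT1 libraries. 9930111J21Rik1 was at 15.3 CPM in ZT13 replicate 1, where the next ZT13 library had 10.1 CPM. Gm12185 was at 2.48 CPM in ZT13 replicate 1, where the next ZT13 library had 0.0681 CPM. None of the 6 members was among them.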

How the results depend on the processing

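The 5 tested members kept their direction and stayed short of the threshold in all 85 combinations of gene and alternative. Adjusted p ranged from 0.0711 (Tgtp1 in DESeq2) to 0.996. Log2 fold changes ranged from -0.87 to -0.23 for Irgm1, 0.04 to 0.38 for Irgm2 and -0.84 to -0.30 for Igtp. They ranged from -4.91 to -2.37 for Tgtp1 and -2.37 to -0.71 for Tgtp2, where -2.37 is that of the summed pair. Samples were left out only 1 at a time. ZT1 replicates 2 and 3 were never left out together, so that the direction without both was not tested. In ZT1 replicates 1 and 4, Irgm1 (45.5 and 38.1 CPM), Igtp (37.6 and 36.2) and Tgtp2 (1.49 and 1.05) were below their ZT13 means. These means were 50.5, 39.6 and 1.56 CPM. Tgtp1 had 0.0649 and 0.317 CPM there, against a ZT13 mean of 0.237 CPM. DESeq2 called 256 genes in place of 0 and 1 member, Iigp1, in place of 0, and the cause was not tested. With the replicate number as a block, which gives the samples no known pairing, 0 genes were called, with log2 fold changes of -1.14 for Tgtp2 with the numbers of the titles and -0.71 with those of the library names. Of the 4 ZT13 libraries, 1 correlated best with the ZT1 library of its own number. Tgtp1 and Iigp1 rest on 0 to 24 counts per library at ZT13, where depth limits their values.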

Other observations

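Genes induced mainly by type I interferon were mixed in direction. Of 18, all tested, 11 were negative and 7 positive with a median log2 fold change of -0.05, against -0.02 over all genes, and 0 passed over all genes in edgeR or DESeq2. Oas2, a sensor of double-stranded RNA, stood at 57.6 ± 10.8 CPM at ZT13 and 82.3 ± 14.6 at ZT1 (edgeR unadjusted p = 0.0133), while Ifit3b stood at 19.9 ± 3.24 at ZT13 and 11.4 ± 4.15 at ZT1 (edgeR unadjusted p = 0.0137), with higher values in every ZT13 library. ZT1 replicates 2 and 3 were the highest pair for 3 of the 18, against 4.01% of all tested genes, and for the summed level of the list, which spanned 1180 to 1634 CPM at ZT13 and 1166 to 1896 CPM at ZT1.

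The ATG8 conjugation genes and vacuole-targeting factors, which IRG effectors need to find their membranes, were abundant at both times. Of 13, all tested, 5 were negative and 8 positive, with a median of 0.05 and 0 at an unadjusted p under 0.05 in edgeR. Gabarap stood at 478 ± 8.11 CPM at ZT13 and 378 ± 115 at ZT1, and Atg7, the activating enzyme, at 196 ± 11.4 at ZT13 and 220 ± 16.2 at ZT1.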
